A study of Mus musculus with 18 samples.

Results

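The genes described here are the tumour necrosis factor (TNF) superfamily ligands and receptors, with the Traf adaptors and the Tnfaip genes that belong to the same signalling system, in kidney cortex of lupus-prone mice. They were taken by a rule on names: every row whose symbol starts with Tnfsf, Tnfrsf, Tnfaip or Traf followed by a number, and Tnf, Lta, Ltb, Ltbr, Cd40, Cd40lg, Cd27, Cd70 and Eda2r where listed. The members and the pathway lists used below were chosen with earlier results of these data known. The rule took 43 of the 15035 genes: 9 ligands, 18 receptors, 7 Traf adaptors, 3 Traf-interacting genes and 6 Tnfaip genes. Lta, Cd70 and the BAFF receptor gene Tnfrsf13c were not analysed here. Fas is outside the rule and appears only beside the pathway lists.

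The study profiled kidney cortex by RNA sequencing in 18 mice, 3 in each of 6 groups. Healthy controls received vehicle and were Mrl/Mpj animals of wild type genotype. All other mice carried the Mrl/lpr genotype, whose lpr allele is a mutation of Fas that leads to lymphoproliferation and a lupus-like nephritis, and these 5 groups received vehicle, MMF, FK506, prednisone or a multi-target treatment. MMF (mycophenolate mofetil) blocks purine synthesis in lymphocytes, FK506 (tacrolimus) inhibits calcineurin, and prednisone is a glucocorticoid. The labels give no dose, no age and no composition for the multi-target treatment. Healthy and diseased mice differ in genotype at the lpr allele as well as in disease, and these cannot be told apart. Each library is labelled as a separate mouse, so an SD below describes the spread between 3 mice. The SE of a difference comes from a limma fit over all 18 mice. It therefore draws on the spread within all 6 groups, not only within the groups compared.

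TNF superfamily ligands are mostly trimeric membrane or secreted proteins made by leukocytes and, in injured kidney, by tubular cells. Their receptors signal through Traf adaptors to NF-kappaB and to stress kinases, and a subset carries a death domain that can start apoptosis or necroptosis. BAFF (Tnfsf13b), CD40 ligand and TWEAK (Tnfsf12) are known for roles in B cell survival, B cell help and tubular injury in lupus nephritis.

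The libraries held between 28939845 and 41066953 reads over the listed genes, as recovered from the deposited log2 values. Proximal tubule, loop and podocyte markers were present in every library, as the tissue label states. Over 6 adipocyte markers the summed linear value was 18900 in vehicle mouse 17 and between 97.3 and 439 elsewhere, and over 6 measured adrenal cortex markers it was 16700 in FK506 mouse 12 and between 299 and 625 elsewhere. Over 6 urothelium markers it was 2160 and 3340 in vehicle mice 17 and 36 and 1470 in prednisone mouse 23, between 255 and 553 elsewhere, and Upk3a and Krt20 of that list were called higher in disease. Results without the vehicle 17 and FK506 12 libraries together, and without each mouse, are given where a call differs, and the part of urothelial transcripts in the results was not tested. Vehicle mouse 36 held the highest value of its group in 33 of the 43 family genes, against 48.1% of all genes. MMF mouse 1 did so in 30 of 43, against 41.7%, and prednisone mouse 23 in 31 of 43, against 38% of all genes.

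To show the sequence context of the genes that moved most, the 250 bases before the transcription start are given for the 3 members with the largest rise in disease, from RefSeq on GRCm38.p6. The windows lie at chr17:35202008-35202257 on the minus strand for Tnf, chr4:145246871-145247120 on the minus strand for Tnfrsf1b and chr9:54068412-54068661 on the minus strand for Tnfaip8l3. Capitals mark a match to the interferon-stimulated response element, and a sequence with no capitals holds no match to either motif searched.
Tnf: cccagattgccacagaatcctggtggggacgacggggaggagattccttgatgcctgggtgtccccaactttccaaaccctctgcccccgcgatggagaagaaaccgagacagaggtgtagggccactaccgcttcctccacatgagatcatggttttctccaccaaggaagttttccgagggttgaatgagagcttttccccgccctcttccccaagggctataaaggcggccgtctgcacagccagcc
Tnfrsf1b: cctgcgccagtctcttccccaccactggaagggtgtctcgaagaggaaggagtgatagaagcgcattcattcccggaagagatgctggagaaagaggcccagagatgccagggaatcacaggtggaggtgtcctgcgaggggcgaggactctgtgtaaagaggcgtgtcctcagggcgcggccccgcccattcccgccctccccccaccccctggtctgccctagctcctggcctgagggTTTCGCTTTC
Tnfaip8l3: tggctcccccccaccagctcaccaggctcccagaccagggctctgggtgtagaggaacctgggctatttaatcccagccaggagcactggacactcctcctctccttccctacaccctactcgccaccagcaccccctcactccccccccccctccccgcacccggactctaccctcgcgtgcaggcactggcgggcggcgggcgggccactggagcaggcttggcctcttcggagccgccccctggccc
The capitals in Tnfrsf1b start 10 bases before the annotated start. The element was searched on both strands as TTTCNNTTTC, and a kappaB consensus site was searched in the same way. Among the 34 members with a RefSeq window, 3 held the interferon-stimulated response element (Tnfrsf14, Tnfrsf1b and Tnfsf13b), which is 8.82% against 3.46% of 27025 genes. The kappaB consensus was found in 6 members (Ltb, Tnfaip2, Tnfaip3, Tnfrsf25, Tnfrsf9 and Traf3), which is 17.6% against 8.23%. A match describes letters in a window and no match says only that these letters were not in it.

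Compared per kilobase of exon, on the linear scale and as levels, the family spans a wide range in healthy cortex. Tnfrsf21, the death receptor DR6, stood highest among 42 members with an annotated length, at 4130 ± 554 (SD, n = 3), followed by Ltbr at 1280 ± 39.7. Tnfsf12 at 967 ± 74.9 and Tnfrsf1a at 908 ± 51.9 came next and did not differ beyond their spread. At the other end Tnfsf13b stood at 7.83 ± 1.23, Tnf at 5.65 ± 3.6 and Tnfaip8l3 at 4.14 ± 1.23, and these neighbours also lay within each other's spread. In vehicle-treated Mrl/lpr cortex Tnfrsf21 was again first at 2780 ± 318, Tnfrsf1a at 2030 ± 506 and Ltbr at 1900 ± 321 followed within each other's spread, and Tnf had reached 69 ± 54.6.

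Diseased cortex was compared with healthy cortex to describe which family genes accompany the nephritis. Of 43 members 25 were higher in vehicle-treated Mrl/lpr mice and 1 was lower, by limma with Benjamini-Hochberg adjustment over all genes at 0.05. Over all genes 15.7% were called higher and 6.76% lower. The median difference was 0.70 on the log2 scale over the members and 0.09 over all genes, and 39 of 43 members lay above 0. In 29 of 43 every vehicle mouse lay above every healthy mouse, against 32.6% of all genes. By role, 7 of 9 ligands, 8 of 18 receptors, 4 of 7 Traf adaptors, 2 of 3 Traf-interacting genes and 4 of 6 Tnfaip genes were higher. Without vehicle mouse 36 the count was 14, all higher, and without healthy mouse 1 it was 17. A set of 13 members was called under each alternative that tested them: Cd27, Ltb, Tnfaip8l2, Tnfaip8l3, Tnfrsf11a, Tnfrsf14, Tnfrsf1a, Tnfrsf1b, Tnfsf10, Tnfsf12Tnfsf13, Tnfsf13b, Traf3ip2 and Traf3ip3.

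**Figure D1:**
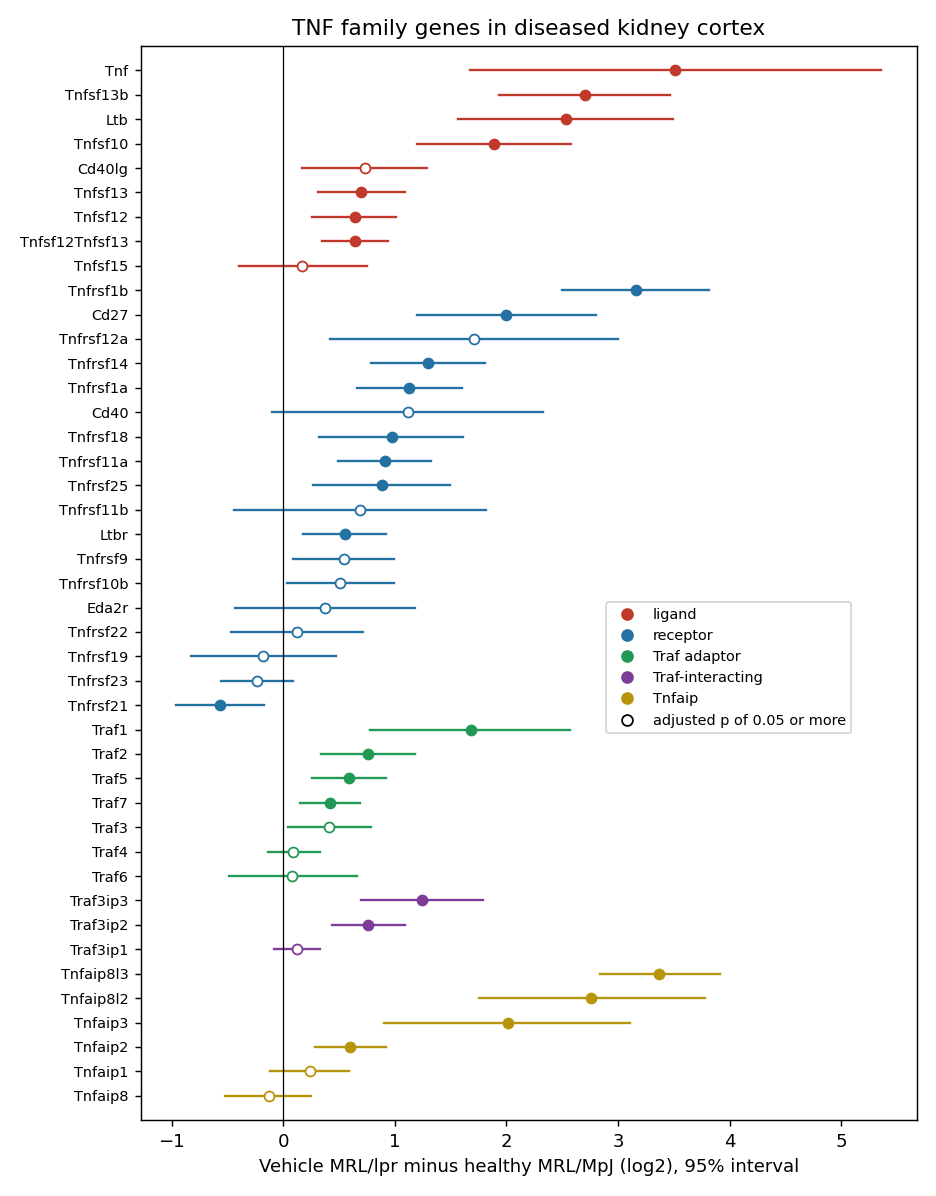
Difference between vehicle-treated Mrl/lpr and healthy mice for 43 family genes on the log2 scale, with 95% limma intervals; colours give the role and filled points passed an adjusted p of 0.05. Tnf, Tnfaip8l3 and Tnfrsf1b lie furthest to the right, and Tnfrsf21 is the filled point to the left of 0.

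Markers of immune cells moved with the same groups. Of 11 macrophage and myeloid markers 10 were higher in disease, and their summed linear value was 5120 to 6200 in healthy and 31500 to 71100 in vehicle mice. Of 12 T cell markers 11 were higher, with sums of 2310 to 2540 and 3820 to 7530. Of 5 measured B and plasma cell markers 4 were higher, with sums of 336 to 365 and 792 to 1440. Proximal tubule markers had sums of 787000 to 857000 in healthy and 172000 to 560000 in vehicle mice, with mouse 36 lowest and 3 of 9 markers called lower. In bulk tissue a change in the number of cells of a type and a change in RNA per cell cannot be told apart, and the part of these markers in the family's differences was not tested.

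**Figure D2:**
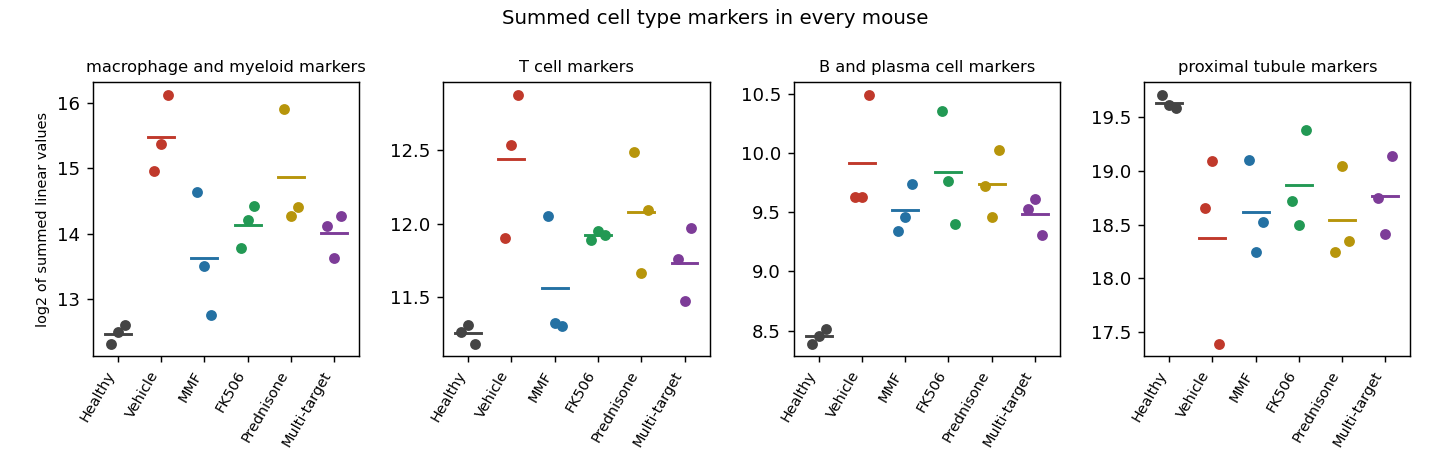
Log2 of the summed linear values of 4 marker lists in each mouse, with a line at the group mean. Macrophage and myeloid markers were highest in vehicle mouse 36 and prednisone mouse 23, and proximal tubule markers were lowest in vehicle mouse 36.

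Among the ligands, Tnf had the largest difference of the family. Its log2 values were 3.08, 1.93 and 3.96 in healthy mice 1, 2 and 3, and 5.37, 6.4 and 7.74 in vehicle mice 7, 17 and 36. The groups did not overlap, and mouse 36 was highest. The difference was 3.51 ± 0.86 (SE), an 11.4-fold higher level (adjusted p = 0.011). These levels are low: healthy mice held the equivalent of 8.1, 3.2 and 13.7 reads and vehicle mice 39.2, 66.4 and 190.9, and the reads were not whole, so counting error is large. The call ended without vehicle mouse 36 (2.90, adjusted p = 0.066) and without healthy mouse 2 (2.98, adjusted p = 0.0549).

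Tnfsf13b (BAFF, a survival factor for B cells) stood at 5.91, 5.83 and 5.47 in healthy mice and 7.97, 8.42 and 8.93 in vehicle mice. The 2 groups were well apart, and the difference was 2.70 ± 0.36, or 6.51-fold (adjusted p = 0.000165). Ltb (lymphotoxin beta, which signals through Ltbr) stood at 5.1, 5.32 and 5.58 against 6.95, 7.81 and 8.82, a difference of 2.53 ± 0.45 (adjusted p = 0.00136). Tnfsf10 (TRAIL, a ligand of death receptors) was 10.27, 9.99 and 10.27 in healthy mice and 11.33, 12.82 and 12.05 in vehicle mice. It was 3.71-fold higher (1.89 ± 0.32, adjusted p = 0.00102), with mouse 17 highest here rather than mouse 36.

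Tnfsf12 (TWEAK, the ligand of Tnfrsf12a) rose less, from 10.59, 10.38 and 10.57 to 11.17, 10.97 and 11.31. The difference was 0.64 ± 0.17 (adjusted p = 0.0192), and it was not called without vehicle mouse 36 (adjusted p = 0.0922) or healthy mouse 2 (adjusted p = 0.0756). Tnfsf13 (APRIL, a plasma cell survival factor) rose by 0.70 ± 0.18 (called in 8 of 12 alternatives) and the readthrough row Tnfsf12Tnfsf13 by 0.64 ± 0.14. Exons of Tnfsf12 and Tnfsf13 are shared with the readthrough gene, RefSeq Tnfsfm13 at chr11:69682577-69696098, over 48.3% and 60% of their exonic bases, so how reads were divided among the 3 rows is uncertain. Cd40lg, expressed by activated helper T cells, was 6.56, 6 and 6.27 in healthy and 7, 7 and 7.03 in vehicle mice. These groups did not overlap, but the difference of 0.73 ± 0.26 missed the threshold (adjusted p = 0.0579). Tnfsf15 (TL1A, the ligand of Tnfrsf25) differed by 0.17 ± 0.27 (adjusted p = 0.671).

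The receptors for TNF both rose. Tnfrsf1a, the broadly expressed death-domain receptor, was 11.25, 11.1 and 11.25 in healthy mice and 12.54, 11.88 and 12.57 in vehicle mice. Tnfrsf1b, the receptor found mainly on leukocytes and activated endothelium, was 7.22, 7.43 and 7.72 against 10.27, 10.55 and 11.04. Neither pair of groups overlapped, and Tnfrsf1b had the larger difference, 3.16 ± 0.31 or 8.97-fold (adjusted p = 1.48e-05), against 1.13 ± 0.22 or 2.19-fold for Tnfrsf1a (adjusted p = 0.00252). Whether the 2 differences differ from each other was not tested.

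Other receptors that passed were Cd27, Tnfrsf14, Tnfrsf18, Tnfrsf11a, Tnfrsf25 and Ltbr. Cd27, a co-stimulatory receptor of T and B cells, was 4.92, 5.33 and 5.08 in healthy and 6.49, 7.54 and 7.31 in vehicle mice, a 4-fold difference (2 ± 0.38, adjusted p = 0.00203). Tnfrsf14 (HVEM, the receptor of LIGHT and BTLA) rose by 1.3 ± 0.24 (adjusted p = 0.00171), Tnfrsf18 (GITR, high on regulatory T cells) by 0.97 ± 0.30 (adjusted p = 0.0339, called in 6 of the 11 alternatives that tested it) and Tnfrsf11a (RANK, the receptor of RANK ligand) by 0.91 ± 0.20 (adjusted p = 0.00518). Tnfrsf18 shares 27.2% of its exonic bases with the antisense gene Gm16008, and the library kit does not mark strand, so the reads of both cannot be told apart. Antisense overlap was at most 13.5% of exonic bases in the other members, in Tnfsf13. Tnfrsf25 (DR3, the death-domain receptor of TL1A) was 6.11, 6.61 and 6.18 in healthy mice and 6.96, 7.3 and 7.28 in vehicle mice. It rose by 0.88 ± 0.29 (adjusted p = 0.0391), a call lost without vehicle mouse 17 (adjusted p = 0.0851) or 36 (0.133), or healthy mouse 1 (0.129) or 3 (0.111), and without the vehicle 17 and FK506 12 libraries together (0.0987).

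Ltbr, the lymphotoxin beta receptor of stromal and epithelial cells, was 11.61, 11.55 and 11.52 in healthy mice and 12.2, 11.82 and 12.31 in vehicle mice. The rise of 0.55 ± 0.17 (adjusted p = 0.0341) was not called without vehicle mouse 36 (adjusted p = 0.156) or 7 (0.0722), or without healthy mouse 1 (0.0778), 2 (0.0874) or 3 (0.0934). Cd40, the receptor of Cd40lg on B cells and macrophages, was 6.88, 7.05 and 7.19 in healthy mice against 7.18, 7.51 and 9.78 in vehicle mice. Mouse 36 stood far above the others, the groups overlapped, and the difference of 1.12 ± 0.57 did not pass (adjusted p = 0.165). Tnfrsf12a (Fn14, induced in injured tubules) showed the same mouse on top, at 9.14, 9.49 and 9.48 in healthy and 10.47, 10.2 and 12.56 in vehicle mice. Its difference of 1.71 ± 0.60 had an adjusted p of 0.0544, and the call was made without vehicle mouse 17 (0.0313) or 7 (0.0416), or without the vehicle 17 and FK506 12 libraries together (0.0395).

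Tnfrsf10b (the TRAIL receptor DR5) was 8.26, 8.49 and 8.3 in healthy mice and 8.39, 8.72 and 9.47 in vehicle mice, which overlapped. The difference was 0.51 ± 0.22 (adjusted p = 0.112), and it passed without vehicle mouse 7 (0.0232). The remaining receptors, Tnfrsf9, Tnfrsf11b (osteoprotegerin, a decoy for RANK ligand), Eda2r (a receptor of ectodysplasin), Tnfrsf19, and Tnfrsf22 and Tnfrsf23 (mouse decoy receptors for TRAIL), differed by -0.24 to 0.69 and none passed. Of these, Tnfrsf19 (-0.18) and Tnfrsf23 (-0.24, with no overlap) lay below 0. Tnfrsf21 was the only member called lower. Its values were 14.24, 14.04 and 13.85 in healthy mice and 13.64, 13.46 and 13.32 in vehicle mice, 1.48-fold lower in vehicle mice (-0.57 ± 0.19, adjusted p = 0.0398). The call was lost when any of these mice was left out except vehicle mouse 7, with adjusted p of 0.0739 without vehicle mouse 17, 0.158 without 36, and 0.15, 0.0956 and 0.0515 without healthy mice 1, 2 and 3. It was 0.0795 without the vehicle 17 and FK506 12 libraries together.

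The Traf adaptors link these receptors to NF-kappaB. Traf1, an adaptor that NF-kappaB induces in lymphocytes, was 6.91, 6.78 and 7.03 in healthy mice and 7.68, 8.36 and 9.72 in vehicle mice. It rose 3.20-fold (1.68 ± 0.42, adjusted p = 0.0119), but without vehicle mouse 36 the difference was 1.11 (adjusted p = 0.0572). Traf2, the shared adaptor of both TNF receptors, was 9.55, 9.69 and 9.66 against 10.14, 10.23 and 10.82, and rose by 0.76 ± 0.20 (adjusted p = 0.0141). Traf5 was 8.48, 8.69 and 8.98 against 9.24, 9.07 and 9.61, and rose by 0.59 ± 0.15 (adjusted p = 0.0154). Both calls depended on single mice: Traf2 was not called without vehicle mouse 36 (adjusted p = 0.0832) or healthy mouse 1 (0.0552), nor Traf5 without vehicle mouse 36 (0.0893), healthy mouse 1 (0.0805) or healthy mouse 2 (0.0517).

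Traf3, which restrains the noncanonical NF-kappaB pathway, was 10.28, 10.4 and 10.49 in healthy mice and 10.5, 10.64 and 11.26 in vehicle mice. Its difference of 0.41 ± 0.18 was not called (adjusted p = 0.102) and passed without vehicle mouse 7 (0.0365). Traf4 stood at 11.36, 11.4 and 11.41 against 11.38, 11.43 and 11.63, and Traf6, the adaptor shared with Toll-like receptors, at 10.7, 10.76 and 10.79 against 10.77, 10.84 and 10.89. These were close together, with differences of 0.09 ± 0.11 and 0.08 ± 0.27. The SE of Traf6 draws on all groups, with SDs of 0.05 in healthy, 0.06 in vehicle and 0.81 in MMF mice. Traf7 rose by 0.42 ± 0.13 (adjusted p = 0.0297) and was called in 7 of 12 alternatives. Among Traf-interacting genes, Traf3ip2 (the signalling adaptor Act1) rose by 0.76 ± 0.15 (adjusted p = 0.0029) and Traf3ip3 by 1.24 ± 0.26 (adjusted p = 0.00375), whereas Traf3ip1, a ciliary transport gene, differed by 0.12 ± 0.10.

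In the Tnfaip group the largest difference was in Tnfaip8l3, a phosphoinositide transfer protein. It stood at 3.86, 4.66 and 4.09 in healthy mice and 7.47, 7.78 and 7.49 in vehicle mice, with no overlap and little spread. The difference was 3.37 ± 0.25, or 10.4-fold (adjusted p = 2.92e-06), from the equivalent of 14, 21 and 15 reads to 168, 173 and 161. Tnfaip8l2, a negative regulator of innate and T cell responses, was 5.67, 5.08 and 5.99 against 7.83, 8.32 and 8.88, and rose 6.79-fold (2.76 ± 0.48, adjusted p = 0.00106). Tnfaip3 (A20, the ubiquitin-editing enzyme that ends NF-kappaB signalling) was 8.34, 8.46 and 8.62 in healthy mice and 9.68, 9.76 and 11.99 in vehicle mice. Its rise was 2.01 ± 0.52 (adjusted p = 0.0142) and 1.25 without vehicle mouse 36 (adjusted p = 0.0607), and it also missed without healthy mouse 1 (0.0515). Tnfaip2 rose by 0.60 ± 0.15 (adjusted p = 0.0117, called in 9 of 12 alternatives), and Tnfaip1 and Tnfaip8 differed by 0.24 ± 0.17 and -0.13 ± 0.18.

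Some disease calls also ended under another processing. In a fit to healthy and vehicle mice alone the adjusted p was 0.0631 for Tnfaip3, 0.0579 for Traf1 and 0.0717 for Traf5, and 0.0447 for Cd40lg, which then passed. After quantile normalization it was 0.0578 for Tnf, 0.1 for Tnfrsf21, 0.166 for Tnfrsf25, 0.0539 for Tnfsf12 and 0.0984 for Traf5. The difference of Tnf was then 2.12.

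**Figure D3:**
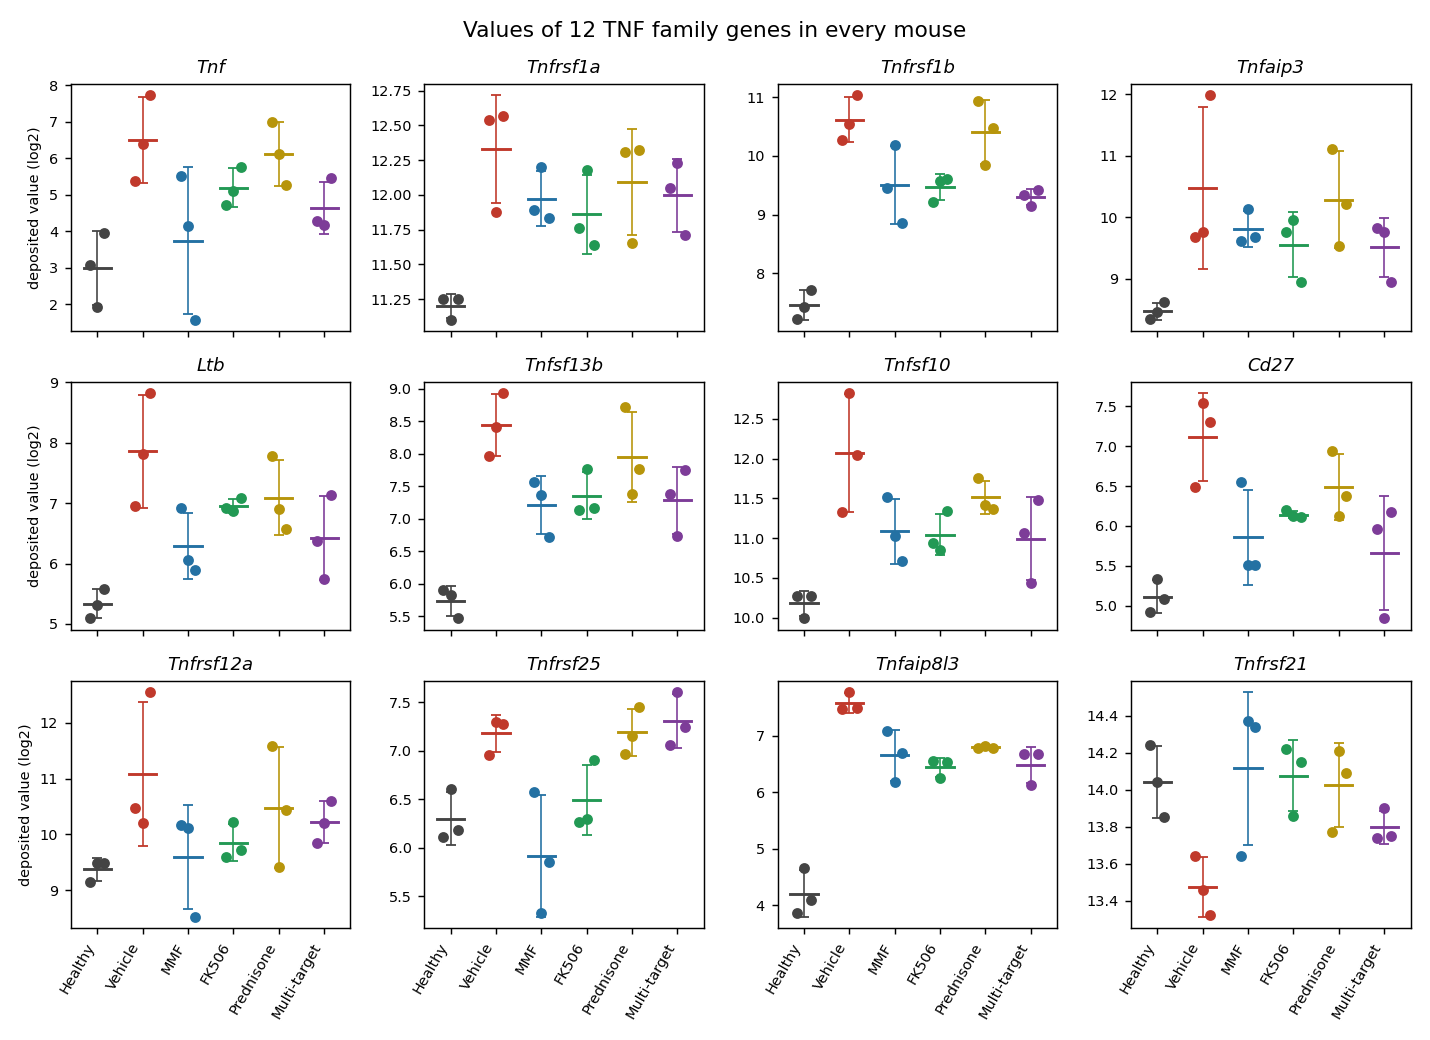
Deposited log2 values of 12 family genes in each of 18 mice, with the group mean (line) and SD (bar, n = 3). Tnfaip8l3 shows no overlap between healthy and vehicle mice, and vehicle mouse 36 is the upper outlying point for Tnfrsf12a and Tnfaip3.

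Genes of the surrounding pathway were read against the same background, 15.7% of all genes higher, 6.76% lower and a median of 0.09. Of 30 NF-kappaB signalling genes 16 were higher and 1, Chuk (a kinase of the IkappaB kinase complex), was lower by 0.37, with a median of 0.57. Bcl3, an atypical IkappaB protein, rose by 2.47 ± 0.44 (adjusted p = 0.00147), Rnf31 (a subunit of the linear ubiquitin ligase) by 0.68 ± 0.12 (adjusted p = 0.00126) and Birc2 (an inhibitor of apoptosis) by 0.59 ± 0.11 (adjusted p = 0.00141). Of 28 TNF-induced NF-kappaB target genes 19 were higher and 1, Sod2, was lower by 0.82, with a median of 1.63. Nfkbia, Nfkb1, Nfkb2, Relb, Birc3 and Bcl3, all called higher, are in both lists, so these counts are partly of the same genes. Irf1 rose by 3.65 ± 0.39 (adjusted p = 3.2e-05), Il1b by 3.61 ± 0.39 (adjusted p = 3.68e-05) and Zc3h12a by 1.45 ± 0.20 (adjusted p = 0.000183).

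Of 21 adaptors and death-signalling genes 6 were higher and none lower, with a median of 0.19, not far from the background. Bcl2a1b, an anti-apoptotic gene, rose by 4.68 ± 0.59 (adjusted p = 0.000108) and Mlkl (the executor of necroptosis) by 1.91 ± 0.37 (adjusted p = 0.00264). Reads of Bcl2a1b and its near-identical paralogs may be divided between them, so its value is uncertain. Of 14 partners of lymphotoxin beta receptor and BAFF signalling 9 were higher, with a median of 1.18. Among those called, Relb, Nfkb2 and Map3k14 are also in the NF-kappaB signalling list. Cd79a, Cd79b and Mzb1 are also among the B and plasma cell markers. Cxcl13, a B cell chemokine, rose by 3.98 ± 0.64, Cd79b, a component of the B cell receptor, by 2.29 ± 0.37 and Xbp1 by 0.79 ± 0.12. Of 6 family members outside the naming rule 4 were higher, among them Relt (1.87 ± 0.23), Fas (1.34 ± 0.15, adjusted p = 3.81e-05) and Fasl (1.09 ± 0.24). In these mice Fas is the mutated gene, and its value counts reads from the mutated locus.

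Drug arms were compared with vehicle within Mrl/lpr to see which family genes differ on treatment. All 4 drug comparisons use the same 3 vehicle mice as the disease comparison. With MMF 1 member, Tnfrsf25, was lower and none was higher, where 0.133% of all genes were called higher and 1.45% lower. At an unadjusted p under 0.05, 27 of 43 members lay apart from vehicle, against 29.9% of all genes. Below vehicle lay 39 of 43, against 56% of all genes, and the median was -0.58 against -0.05 over all genes. In 14 members every MMF mouse lay below every vehicle mouse, against 12.4% of all genes. The single call rests on single mice: 23 members were called without MMF mouse 1 and 20 without vehicle mouse 7, but 0 without MMF mouse 14 or 27 or vehicle mouse 17 or 36. The share of all genes called without each mouse is not given here, so these counts cannot be set against a background.

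Tnfrsf25 stood at 6.57, 5.32 and 5.85 in MMF mice 1, 14 and 27, within or below the healthy range of 6.11 to 6.61, and was 1.27 ± 0.29 lower than vehicle (adjusted p = 0.0486). It was 6.27, 6.3 and 6.91 in FK506 mice 3, 12 and 24, 6.97, 7.15 and 7.45 in prednisone mice 23, 29 and 35, and 7.06, 7.61 and 7.25 in multi-target mice 6, 18 and 39. FK506 mice lay below every vehicle mouse, and prednisone and multi-target mice overlapped with vehicle. Tnfrsf25 held the equivalent of 28 to 172 reads per library. These were whole in 0 of the 18 libraries, so how they were counted is uncertain. Without MMF mouse 14 the MMF difference was -0.97 (adjusted p = 0.162), and adjusted p was 0.242 without MMF mouse 27, 0.0866 without vehicle mouse 17 and 0.217 without vehicle mouse 36. It was 0.385 in a fit to MMF and vehicle mice alone, 0.0716 after quantile normalization and 0.113 without the vehicle 17 and FK506 12 libraries together. Lck among T cell markers was lower by 1.81 with MMF (adjusted p = 0.0486), and the T cell marker sums were 2520 to 4230 with MMF against 3820 to 7530 with vehicle. Macrophage and myeloid sums were 6950 to 25400 with MMF, with 3 of 11 markers called lower. Their part in the Tnfrsf25 difference was not tested. In the pathway lists, lower values with MMF were called in 1 of 30 NF-kappaB signalling genes, the kinase gene Ikbke (-1.79, adjusted p = 0.0459), and in 1 of 21 adaptor and death-signalling genes, the necroptosis kinase gene Ripk3 (-1.64, adjusted p = 0.0486).

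The FK506, prednisone and multi-target arms had 0 members called, and 0 percent of all genes passed in these 3 comparisons. Unadjusted p under 0.05 was reached by 15, 3 and 15 of 43 members, against 19.9%, 3.15% and 15.6% of all genes, and the smallest adjusted p was 0.171, 0.943 and 0.161. Below vehicle lay 37, 36 and 36 of 43 members, against 52.2%, 44% and 53.5% of all genes. The members' medians were -0.52, -0.21 and -0.38, and those of all genes -0.01, 0.03 and -0.02. Non-overlap below vehicle was seen in 15 members with FK506 (12.2% of all genes), 1 with prednisone (1.3%) and 12 with multi-target (9.54%). Macrophage, myeloid and T cell markers lay lower in the same arms. All 11 measured macrophage and myeloid markers were below vehicle with FK506 (median -1.35), prednisone (-0.65) and multi-target treatment (-1.42). So were all 12 T cell markers (-0.85, -0.49 and -1.05). Of 5 measured B and plasma cell markers only 2, 3 and 4 were below vehicle in these arms, with medians of 0.08, -0.02 and -0.31. None of these markers was called. Macrophage and myeloid sums were 14100 to 22000 with FK506 and 12700 to 19700 with multi-target treatment, and T cell sums 3790 to 3960 and 2830 to 4000. The part of these markers in the members' values was not tested. With estimated library weights limma called 11 members with FK506, 0 with prednisone and 14 with multi-target treatment. The share of all genes called in the weighted fits is not given here, so whether these counts exceed a background cannot be read from them. The estimation of weights stopped before it converged and left these arms close to 1 mouse, with multi-target mouse 6 at a weight of 26.6 against 0.579 and 0.426 for mice 18 and 39, and FK506 mouse 12, the library with adrenal markers, at 4.58 against 0.694 and 0.408 for mice 3 and 24. Leaving out vehicle mouse 7 gave 1 call with multi-target.

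Values of the ligands in treated mice varied within arms. Tnf was 5.52, 4.15 and 1.57 with MMF, 4.71, 5.11 and 5.76 with FK506, 7.01, 6.12 and 5.26 with prednisone and 4.29, 4.18 and 5.45 with multi-target treatment. MMF mouse 27 lay below every healthy mouse, at the equivalent of 2 reads, while MMF mouse 1 lay within the vehicle range. The MMF difference of -2.76 ± 0.86 was not called (adjusted p = 0.0763). Tnfsf13b was 7.56, 7.36 and 6.72 with MMF, 7.14, 7.77 and 7.16 with FK506, 8.72, 7.38 and 7.76 with prednisone and 7.38, 6.73 and 7.75 with multi-target treatment. Every MMF, FK506 and multi-target mouse lay below every vehicle mouse, with differences of -1.22, -1.08 and -1.15, none called. Ltb was 6.92, 6.06 and 5.9 with MMF, 6.92, 6.87 and 7.09 with FK506, 7.78, 6.91 and 6.58 with prednisone and 6.38, 5.74 and 7.13 with multi-target treatment, all of them above the healthy mice.

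Tnfsf10 was 11.52, 11.03 and 10.71 with MMF, 10.94, 10.85 and 11.34 with FK506, 11.75, 11.41 and 11.37 with prednisone and 11.06, 10.44 and 11.48 with multi-target treatment. Each arm overlapped with the lowest vehicle mouse. Tnfsf12 was 11.14, 10.49 and 10.5 with MMF, 10.59, 10.85 and 11.15 with FK506, 11.16, 10.88 and 10.92 with prednisone and 11.12, 10.85 and 11.03 with multi-target treatment. Cd40lg was 6.92, 5.93 and 6.25 with MMF, 6.81, 6.56 and 6.63 with FK506, 7.28, 6.74 and 6.27 with prednisone and 6.71, 6.47 and 6.45 with multi-target treatment. Cd40lg lay below every vehicle mouse in each arm except prednisone, where mouse 23 was above all of them.

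Among the receptors, Tnfrsf1b was 9.46, 10.18 and 8.86 with MMF, 9.21, 9.58 and 9.61 with FK506, 10.93, 9.84 and 10.47 with prednisone and 9.34, 9.15 and 9.42 with multi-target treatment. Every MMF, FK506 and multi-target mouse lay below vehicle, by -1.12 ± 0.31 (adjusted p = 0.0611), -1.16 ± 0.31 (0.171) and -1.31 ± 0.31 (0.163), and every treated mouse lay above every healthy mouse. Tnfrsf1a was 11.89, 12.2 and 11.83 with MMF, 11.76, 12.18 and 11.64 with FK506, 12.31, 11.65 and 12.32 with prednisone and 12.05, 12.23 and 11.71 with multi-target treatment. It also lay above healthy in every treated mouse and overlapped with vehicle in each arm. Tnfrsf21 was 13.64, 14.37 and 14.34 with MMF, 14.22, 13.86 and 14.15 with FK506, 13.77, 14.21 and 14.09 with prednisone and 13.74, 13.9 and 13.75 with multi-target treatment. In all 4 arms every treated mouse lay above every vehicle mouse, although MMF mouse 1 and vehicle mouse 7 were equal to the digits given, and none was called.

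Cd27 was 6.55, 5.51 and 5.51 with MMF, 6.2, 6.12 and 6.11 with FK506, 6.94, 6.13 and 6.38 with prednisone and 5.96, 4.84 and 6.17 with multi-target treatment. Multi-target mouse 18 lay below every healthy mouse, and the multi-target difference of -1.46 ± 0.38 had an adjusted p of 0.166. Cd40 was 7.13, 6.86 and 6.47 with MMF, 7.02, 7.1 and 6.83 with FK506, 8.7, 7.41 and 7.03 with prednisone and 6.85, 6.08 and 7.59 with multi-target treatment. Its highest treated value was in prednisone mouse 23. Tnfrsf12a was 10.16, 10.12 and 8.52 with MMF, 9.6, 10.23 and 9.72 with FK506, 11.59, 9.41 and 10.44 with prednisone and 9.84, 10.21 and 10.6 with multi-target treatment. Again prednisone mouse 23 was highest, and MMF mouse 27 lay below the healthy mice.

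Ltbr was 12.15, 12.12 and 11.99 with MMF, 12.18, 12.16 and 11.82 with FK506, 12.18, 11.71 and 12.15 with prednisone and 12.15, 12.47 and 11.79 with multi-target treatment. Its differences from vehicle lay between -0.10 and 0.02. Tnfrsf10b was 8.57, 8.05 and 8.41 with MMF, 8.4, 8.14 and 8.48 with FK506, 8.64, 8.53 and 8.33 with prednisone and 8.25, 8.33 and 8.66 with multi-target treatment. Every arm overlapped with vehicle for Tnfrsf10b.

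Tnfaip8l3 and Tnfaip3 lay above healthy in every treated mouse. Tnfaip8l3 was 7.08, 6.18 and 6.7 with MMF, 6.55, 6.25 and 6.53 with FK506, 6.78, 6.82 and 6.78 with prednisone and 6.67, 6.12 and 6.67 with multi-target treatment. Each treated mouse lay below every vehicle mouse and above every healthy mouse. Tnfaip8l2 was 7.76, 6.55 and 5.57 with MMF, 6.89, 7.45 and 7.4 with FK506, 8.71, 7.26 and 7.46 with prednisone and 7.05, 7.07 and 7.13 with multi-target treatment. Tnfaip3 was 9.61, 10.14 and 9.68 with MMF, 9.76, 9.95 and 8.95 with FK506, 11.11, 9.53 and 10.22 with prednisone and 9.82, 9.76 and 8.95 with multi-target treatment. All treated mice lay above the healthy mice for Tnfaip3, and MMF mouse 27 lay in the healthy range for Tnfaip8l2.

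Among the adaptors, Traf1 was 7.9, 6.85 and 6.55 with MMF, 7.4, 7.4 and 7.61 with FK506, 8.52, 7.6 and 7.75 with prednisone and 7.52, 7.52 and 7.75 with multi-target treatment. Traf2 was 10.15, 9.59 and 9.51 with MMF, 9.72, 9.89 and 9.99 with FK506, 10.44, 9.8 and 10.05 with prednisone and 9.89, 9.91 and 10 with multi-target treatment. MMF mice 14 and 27 lay lowest of the treated mice for both. Traf3 was 10.42, 9.96 and 10.15 with MMF, 10.49, 10.41 and 10.5 with FK506, 10.79, 10.35 and 10.37 with prednisone and 10.44, 10.23 and 10.4 with multi-target treatment. Traf5 was 8.78, 8.77 and 8.7 with MMF, 9.09, 9.19 and 9.01 with FK506, 9.3, 9.04 and 9.14 with prednisone and 9.14, 9.3 and 8.88 with multi-target treatment. Every MMF mouse lay below every vehicle mouse for Traf3 and Traf5, by -0.62 ± 0.18 (adjusted p = 0.0621) and -0.56 ± 0.15 (adjusted p = 0.0612). Traf4 was 11.46, 11.03 and 11.46 with MMF, 11.4, 11.32 and 11.53 with FK506, 11.51, 11.54 and 11.4 with prednisone and 11.44, 11.4 and 11.38 with multi-target treatment.

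Traf6 was 10.44, 11.71 and 11.93 with MMF, 11.34, 10.94 and 10.72 with FK506, 10.73, 10.84 and 10.96 with prednisone and 10.77, 10.67 and 10.74 with multi-target treatment. MMF mice 14 and 27 were the highest of all 18 mice and MMF mouse 1 was the lowest, so the mice of this arm lay at both ends of the range. Its difference from vehicle was 0.53 ± 0.27 (adjusted p = 0.197).

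**Figure D4:**
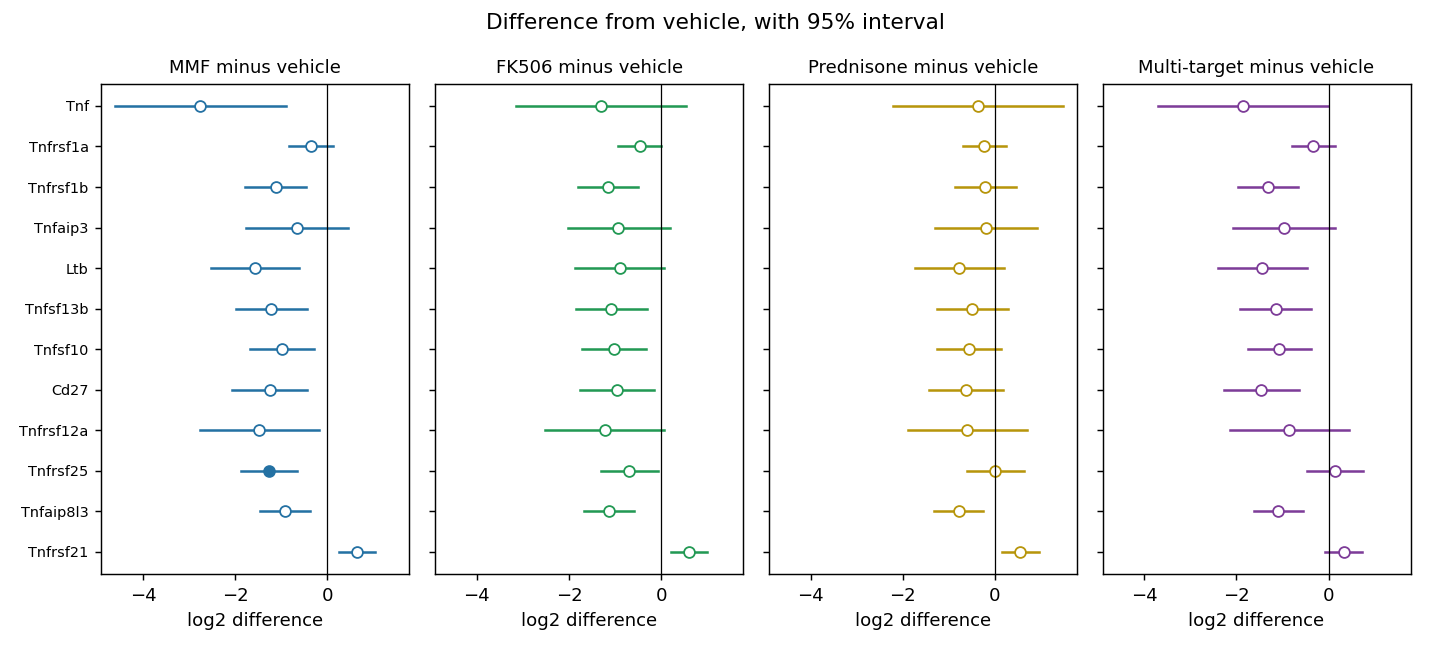
Difference of each treated group from vehicle on the log2 scale for 12 family genes, with 95% limma intervals. The only filled point, with an adjusted p under 0.05, is Tnfrsf25 with MMF at -1.27, and prednisone differences lie closest to 0 for Tnfrsf1b and Tnf.

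Treated mice were also compared with healthy mice, to see which family genes still stood apart. With MMF 5 members were higher and 0 lower, where 9.56% of all genes were called higher and 6.37% lower, so this count is near the background. Unadjusted p under 0.05 was reached by 34.9% of members and 35.3% of all genes in that comparison. With FK506 7 were higher (5.73% higher and 1.54% lower over all genes), with prednisone 18 (13.4% and 3.29%) and with multi-target treatment 6 (5.33% and 1.65%). None was lower in any arm. These comparisons share the healthy mice. Named after their values were seen, 4 members were called in each of the 4 arms: Tnfaip8l3, Tnfrsf1b, Tnfsf13b and Traf3ip2. Tnfaip8l3 stood 2.45 ± 0.25, 2.24 ± 0.25, 2.59 ± 0.25 and 2.28 ± 0.25 above healthy with MMF, FK506, prednisone and multi-target treatment, against 3.37 in vehicle mice. Tnfrsf1b stood at 2.05, 2.01, 2.95 and 1.85 above healthy, each ± 0.31. Tnfsf13b stood at 1.48, 1.62, 2.22 and 1.55, each ± 0.36, and Traf3ip2 at 0.77, 0.65, 0.73 and 0.66, each ± 0.15.

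Traf3ip2 was 8.02, 8.05 and 8.17 in healthy mice, 8.96, 8.66 and 8.91 in vehicle mice, and between 8.54 and 9.12 in treated mice, so no treated mouse reached the healthy range. Members called in fewer arms included Tnfrsf1a with MMF (0.77, adjusted p = 0.0317), prednisone (0.90, 0.014) and multi-target treatment (0.80, 0.0421), and Tnfrsf25 with prednisone (0.89, 0.0448) and multi-target treatment (1.01, 0.0467). Ltb was called with FK506 (1.63, 0.0423) and prednisone (1.76, 0.0174), and Tnf with prednisone alone (3.14 ± 0.86, adjusted p = 0.0241). Further members called with FK506 or prednisone are not named here. Macrophage and myeloid sums were 19700 to 61500 in prednisone mice, and their part in the result was not tested. These counts depend on single mice. The MMF count was 10 without MMF mouse 1 and 3 without MMF mouse 14 or any healthy mouse. The FK506 count was 2 without FK506 mouse 12 or any healthy mouse, 3 without mouse 3 and 4 without mouse 24. For prednisone it was 5 without prednisone mouse 23, 11 without mouse 35, and 7 without healthy mouse 1 or 2. The multi-target count was 2 without any healthy mouse or multi-target mouse 6, and 3 without mouse 18.

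**Figure D5:**
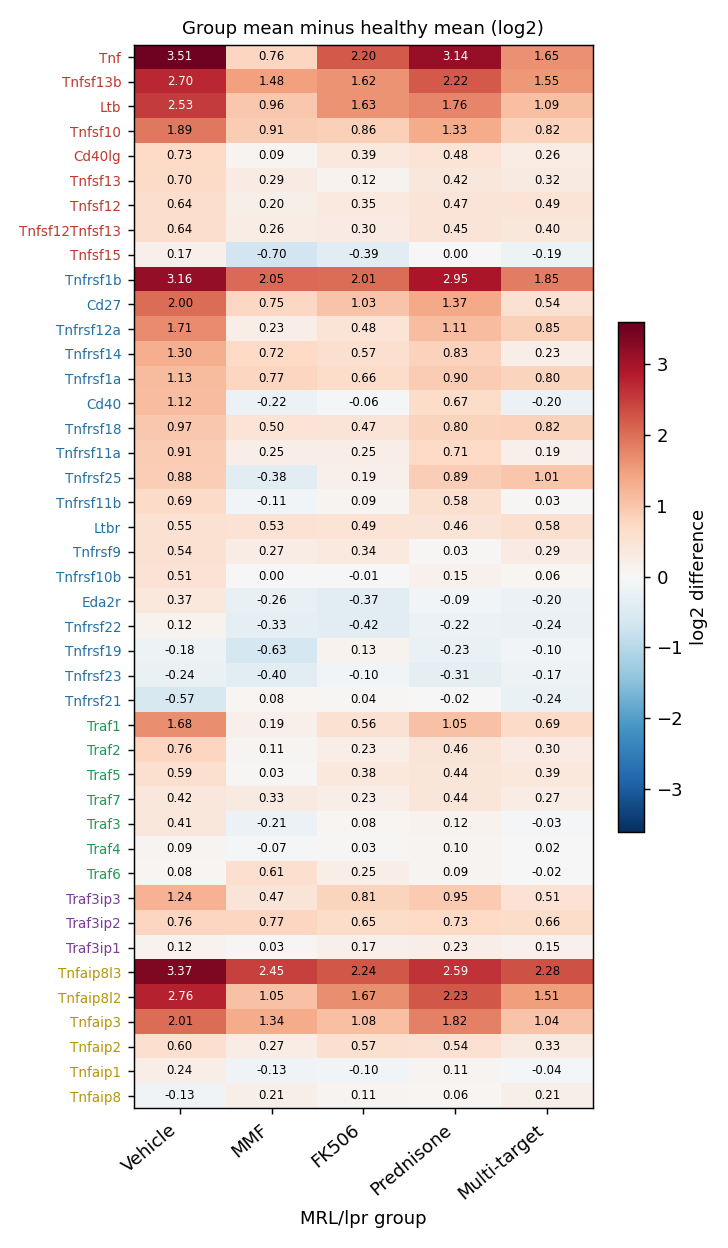
Mean of each Mrl/lpr group minus the healthy mean (log2) for 43 family genes, with symbol colours giving the role as in the plot of disease differences. Tnfrsf1b and Tnfaip8l3 are at least 1.85 in all 5 groups, and Tnfrsf21 is at -0.57 in vehicle mice and between -0.24 and 0.08 in the treated groups.

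The multi-target arm was set against each single drug, which is the comparison the study's title points to. Against MMF, FK506 and prednisone 0 members were called in each, with 0 percent of all genes called. Unadjusted p under 0.05 was reached by 3, 1 and 4 of 43 members, against 7.49%, 0.406% and 3.35% of all genes, so the count against MMF is near the background. The largest difference from MMF was in Tnfrsf25, 1.39 ± 0.29 higher with multi-target treatment (unadjusted p = 0.000207, adjusted p = 0.446), with no overlap between 5.32 to 6.57 and 7.06 to 7.61. Traf6 lay 0.63 ± 0.27 lower and Traf5 0.36 ± 0.15 higher than with MMF (adjusted p = 0.648 for both). Tnfrsf25 was also the member with the largest difference from FK506, at 0.81 ± 0.29 (adjusted p = 1). Against prednisone Tnfrsf1b lay 1.10 ± 0.31 lower (adjusted p = 0.993), with Cd27, Tnfrsf11a and Tnfrsf14 lower by 0.83, 0.52 and 0.60. Without MMF mouse 1 the count against MMF was 4, and estimated library weights gave 13 against MMF, 4 against FK506 and 0 against prednisone. These weighted counts rest mainly on multi-target mouse 6, weighted 26.6, and MMF mouse 1 had a weight of 0.0955. Shares of all genes called under these settings are not given here. Between the 3 single drugs, 0 members and 0 of all genes were called for MMF against FK506, MMF against prednisone or FK506 against prednisone. Unadjusted p under 0.05 was reached by 2, 7 and 3 members. The share of all genes was not computed for these pairs, so the counts cannot be set against a background.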

How the data were processed

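The authors deposited log2 expression values for 15035 genes in 18 libraries, from TruSeq RNA libraries of kidney cortex; limma and mm10 are named in the submitters' processing notes, without versions. The aligner and annotation are not given there. Reads were recovered from the values to give depth, and 75.0% to 75.5% of values came out whole within 0.001 reads, so no count test was run. Each comparison was fitted with limma 3.58.1 in R 4.3.3 on the deposited values, with 1 mean per group over all libraries, an intensity trend, 12 residual degrees of freedom, no filter and no pseudocount, and Benjamini-Hochberg adjustment over all genes at 0.05. A fold change is 2 to the power of the log2 difference. The residual SD of the median gene was 0.22. The fit was tested on simulated data.

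Genes given in full are the 5 called members with the largest rise and up to 5 with the largest fall in disease, every member called in a drug comparison, a set chosen for known roles in the pathway, and the 3 genes with the smallest p in each pathway list. In the adaptor and death-signalling list, 1 of these is not reported here. The members and the lists were chosen with earlier results of these data known. Promoters and exon overlaps come from RefSeq and GENCODE tables of GRCm38.p6. Alternatives were a fit to the 2 groups compared, no trend, leaving out the lowest 25% of genes, quantile normalization, library weights, leaving out each mouse, and leaving out the libraries of vehicle mouse 17 and FK506 mouse 12. All were listed with those earlier results known, and none was added later.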

Additional observations from a re-analysis of the deposited data

How the results depend on the processing

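Over the 12 alternatives the named members gave 278 values in the disease comparison and in each of the 4 drug comparisons with vehicle. Direction turned in 1 of them for disease, 5 for MMF, 6 for FK506, 23 for prednisone and 8 for multi-target treatment. The disease count of 26 was 14 to 29 when each mouse was left out, and 14 without the lowest 25% of genes. That filter took Cd27, Ltb, Tnf, Tnfaip8l2, Tnfaip8l3, Tnfrsf11a, Tnfrsf14, Tnfrsf18, Tnfrsf25, Tnfsf13b, Traf1 and Traf3ip3, all called in the main fit, out of the test. The lower count under the filter therefore does not show that their calls were lost. The MMF count of 1 was 0 in the fit to 2 groups only, after quantile normalization and without the vehicle 17 and FK506 12 libraries. It was 23 with library weights and 0 to 23 when each mouse was left out. Without the lowest 25% it was 0, but Tnfrsf25, the only MMF call, was itself not tested there. The FK506 count was 11 and the multi-target count 14 with library weights, and the multi-target count was 0 to 1 when each mouse was left out. Against healthy mice the counts in the fit to 2 groups only were 9 for MMF, 15 for FK506 and 15 for multi-target treatment. With library weights they were 17, 28 and 32. Shares of all genes called are not given here for any of the alternatives, so the counts describe the members alone. Without the lowest 25% the counts against healthy mice were 3 for FK506, 8 for prednisone and 3 for multi-target treatment, and after quantile normalization 3, 7 and 3. Tnfaip8l3, Tnfsf13b, Ltb, Tnf and Tnfrsf25 were among the members not tested without the lowest 25%. Without the vehicle 17 and FK506 12 libraries the FK506 count was 2. Leaving out each mouse gave 3 to 10 for MMF, 2 to 4 for FK506, 5 to 17 for prednisone and 2 to 5 for multi-target treatment. Multi-target over MMF gave 13 with library weights and 0 to 4 when each mouse was left out, and multi-target over FK506 gave 4 with library weights. The estimation of weights stopped before it converged and gave weights from 0.0955 (MMF mouse 1) to 26.6 (multi-target mouse 6).

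After quantile normalization Traf6 was -0.03 in disease, Traf4 -0.03 and Traf6 -0.01 with prednisone, and Ltbr 0 with multi-target treatment. With library weights Ltbr was 0.07 with MMF, 0.16 with FK506 and 0.02 with prednisone, Traf5 was 0 with FK506, Tnfaip3 was 0.26 with prednisone, and Tnfrsf25, Tnfsf12 and Traf4 were -0.12, 0.06 and 0.01 with multi-target treatment. Without the vehicle 17 and FK506 12 libraries Traf4 was -0.02 with prednisone and Ltbr -0.12 with multi-target treatment. When each mouse was left out, Ltbr ranged from -0.17 to 0.07 and Tnfaip3 from -1.06 to 0.09 with MMF. With FK506 Ltbr ranged from -0.21 to 0.05, Traf4 from -0.12 to 0.01 and Traf6 from 0 to 0.31. With multi-target treatment Ltbr ranged from -0.14 to 0.2 and Tnfrsf25 from -0.03 to 0.25. With prednisone the ranges were -0.94 to 0.25 for Tnf, -0.94 to 0.37 for Cd40, -0.24 to 0.05 for Ltbr, -0.6 to 0.56 for Tnfaip3, -1.15 to 0.15 for Tnfrsf12a, -0.47 to 0.08 for Tnfrsf1b, -0.12 to 0.12 for Tnfrsf25, -0.04 to 0.08 for Traf4, -0.27 to 0 for Traf5 and -0.05 to 0.07 for Traf6. The cause was not tested. No paired analysis was possible because each library is labelled as a separate mouse and mouse numbers pair none across groups.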
